A study of Mus musculus with 8 samples.

Results

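The genes of respiratory complex I were examined in tibialis anterior muscle, a hind limb muscle made mostly of fast fibres, as every target whose symbol starts with Nduf. This rule found 40 of the 23930 targets, and all 40 had a mean of at least 1 RPM (reads of a target scaled by the reads on all targets of its library), the level above which genes were tested. They comprised 31 structural subunits, 7 assembly factors of the Ndufaf family, and Ndufa4 with its paralog Ndufa4l2. All 40 are counted as complex I genes below, although Ndufa4 and Ndufa4l2 lie outside complex I. The subunits Ndufa7, Ndufa12, Ndufab1, Ndufb1, Ndufb4 and Ndufs5 and the subunits encoded in mitochondrial DNA were not analysed here. In the KO group were 4 mice with loxP sites in Sdhc and an inducible Cre driven by HSA, a skeletal muscle actin promoter, so that deletion is directed to muscle fibres and not to the other cells of the muscle. The WT group consisted of 4 littermates that carried this Cre but lacked loxP sites. Tamoxifen was given to every mouse of both groups at 12 weeks of age, and muscle was taken 3 weeks later. The genotype labels give C57BL/6 for the WT mice and a different strain number for each KO mouse, whereas the growth protocol gives C57/B6 throughout. The comparison addresses how muscle gene expression differs after the loss of a subunit of complex II.

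Complex I is the largest enzyme of the respiratory chain and the main entry point of electrons from NADH. Its peripheral arm reaches into the mitochondrial matrix and consists of the N module, which oxidizes NADH, and the Q module, which passes electrons to ubiquinone. Its membrane arm pumps protons and has a proximal and a distal part. Complex II, which contains Sdhc, delivers electrons to the same ubiquinone pool. Assembly factors join the modules and are absent from the finished enzyme.

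The libraries held 5983175 to 8639420 reads in KO and 7000920 to 9119006 reads in WT muscle. A level of 3 reads, the floor of detection, was 0.329 to 0.501 RPM, and the weakest complex I value, for Ndufaf2, rested on 96 reads, so all 40 genes were far above the floor in every library. Sdhc stood at 16.9, 46.6, 18.7 and 54.3 RPM in KO1 to KO4, against 737, 853, 848 and 748 RPM in WT1 to WT4 (limma log2 fold change -4.68, BH adjusted p = 1.06e-05), so the libraries went with their labels. Where the Sdhc amplicon lies relative to the deleted part was not analysed here. Markers of fast fibres were abundant in every library, with a sum over 8 genes of 144400 to 199000 RPM in KO and 131100 to 183400 RPM in WT. The sum over 6 slow fibre genes was 223 to 864 RPM in KO, with KO1 the lowest and KO4 the highest, against 181 to 319 RPM in WT. The median of each of the 6 was higher in KO, as was that of 6 of the 8 fast fibre genes. Myh7 and Tpm3, also on the slow fibre list, were not among the targets. Over all libraries the slow fibre sums overlapped, with KO2 and KO4 above every WT library. By Xist and Y-linked genes, KO1, KO3, WT1 and WT3 were male and the others female. Within males the sums were 223 and 300 RPM in KO1 and KO3, against 180.5 and 181 RPM in WT1 and WT3. Within females they were 500 and 864 RPM in KO2 and KO4, against 293 and 319 RPM in WT2 and WT4. KO was thus above WT within each sex, but with so few libraries of each sex this is a description only. The part of fibre type in the complex I values was not tested. Bone markers separated the groups: the sum over 8 osteoclast genes was 1.27 to 8.02 RPM in KO muscle, against 228, 29.1, 11.8 and 571 RPM in WT1 to WT4. The sum over 6 osteoblast and osteocyte genes was 145 to 368 RPM in KO, against 3546, 914, 397 and 5763 RPM in WT1 to WT4. By group medians, 7 of the 8 and 5 of the 6 genes were lower in KO, and in both lists WT1 and WT4 had the highest sums. Sums over 6 macrophage genes (24.7 to 30.7 RPM in KO, 39.9 to 192 RPM in WT) and 5 fibroblast genes (258 to 528 RPM in KO, 613 to 1153 RPM in WT) did not overlap either. Sums for endothelial cells, satellite cells, adipocytes and cardiac muscle overlapped between the groups. None of the marker genes measured was at 0 in all 8 libraries. In whole muscle, fewer cells of a type and less RNA per cell cannot be told apart.

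No complex I gene passed the test for a difference between KO and WT muscle. Of the 40 genes, 0 reached an adjusted p under 0.05 in limma, with 0.0273% of the 11004 tested genes called, and 0 did so in edgeR's quasi-likelihood test (0.00909% called) or in DESeq2 (1.35% called). At an unadjusted p under 0.05, 1 of the 40 was lower in KO, Ndufb11, and 0 were higher, where 8.56% of all tested genes were lower and 0.663% higher. The range of log2 fold changes ran from -0.49 for Ndufb11 to 0.27 for Ndufaf7. The 95% intervals of all 40 genes lay between -0.80 and 0.61, so that a halving or a doubling of any of them was outside its interval. Among all tested genes, 92.4% had intervals inside a log2 change of 1 in either direction.

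**Figure D1:**
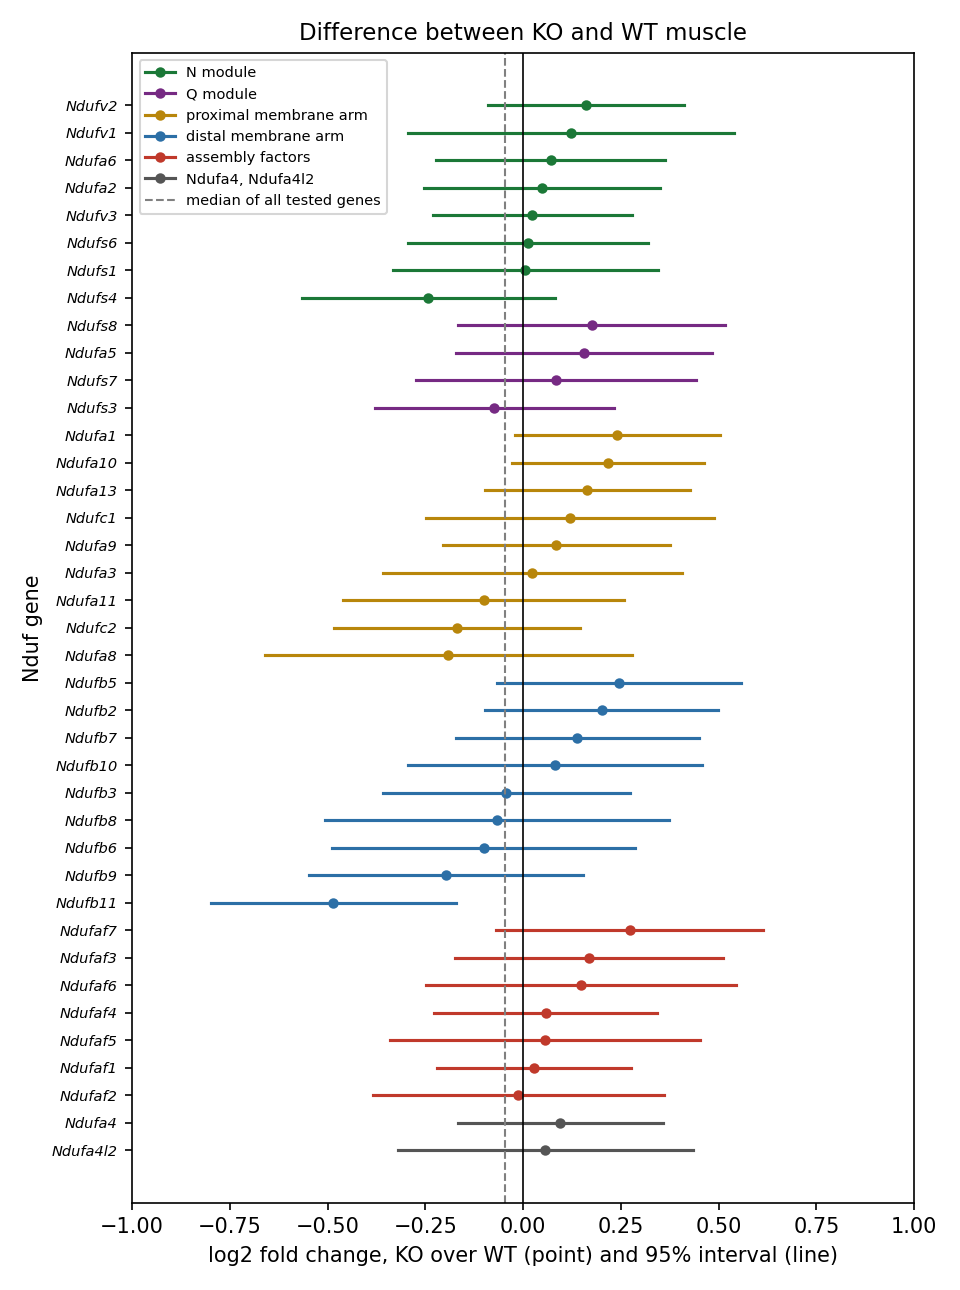
Log2 fold change of each Nduf gene reported here, KO over WT, on the log2(RPM + 1) scale (point) with its 95% interval from limma (line, 4 libraries per group), coloured by structural group. All points lie between -0.49 and 0.27, the interval of Ndufb11 alone lies wholly on one side of 0, and the dashed line marks the median of all tested genes at -0.05.

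The subunits and the assembly factors were set against each other as groups. The 31 subunits had a median log2 fold change of 0.07, with 21 above 0 and 10 below, and the 7 assembly factors had a median of 0.06, with 6 above 0 and 1 below. The medians thus differed by 0.01. By means over the members, KO minus WT was 0.025 for subunits and 0.102 for assembly factors. This difference of -0.077 had the opposite sign to that of the medians. Over all tested genes the median was -0.05, and 40.8% were above 0. The middle 50% of the subunits lay between -0.07 and 0.15, and that of all tested genes between -0.20 and 0.08. By structural group, the median was 0.04 over the 8 subunits of the N module, 0.08 over the 5 of the Q module, 0.08 over the 9 of the proximal membrane arm and -0.04 over the 9 of the distal membrane arm. The groups were described by these values, with no test over the members. WT1 and WT4 had the lowest subunit and assembly factor values of the WT libraries, and also the highest bone markers. Leaving them out was bound to lower the fold changes on average, so it cannot bear on the part of bone. Without both, the median was -0.11 for subunits, with 8 of 31 above 0, and -0.08 for assembly factors, with 3 of 7 above 0, against -0.10 for all tested genes, and 0 complex I genes were called. Without WT1 alone the subunit median was -0.01, and with TMM or median-ratio scaling it was 0.13 and 0.13, where the median of all tested genes was 0.01 and 0.01. With quantile scaling the subunit median was 0.045 and that of all tested genes 0.035, so that the subunits lay 0.01 above all genes, against 0.117 without it.

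The level of complex I genes varied more between libraries of 1 group than between the groups. To show this, each gene's log2(RPM + 1) was taken relative to its mean over the 8 libraries and averaged over the group of genes. For the 31 subunits this gave 0.11, 0.10, -0.03 and -0.13 in KO1 to KO4, against -0.18, 0.12, 0.12 and -0.11 in WT1 to WT4. KO and WT values therefore overlapped, with means of 0.01 ± 0.11 in KO and -0.01 ± 0.16 in WT (SD, n = 4 each). For the 7 assembly factors the values were 0.25, 0.04, 0.08 and -0.17 in KO1 to KO4, against -0.15, 0.03, 0.15 and -0.24 in WT1 to WT4. KO4, WT1 and WT4 were the lowest libraries for both groups of genes. The difference of subunits minus assembly factors was -0.14, 0.06, -0.11 and 0.04 in KO1 to KO4, against -0.03, 0.09, -0.03 and 0.12 in WT1 to WT4, again with overlap.

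**Figure D2:**
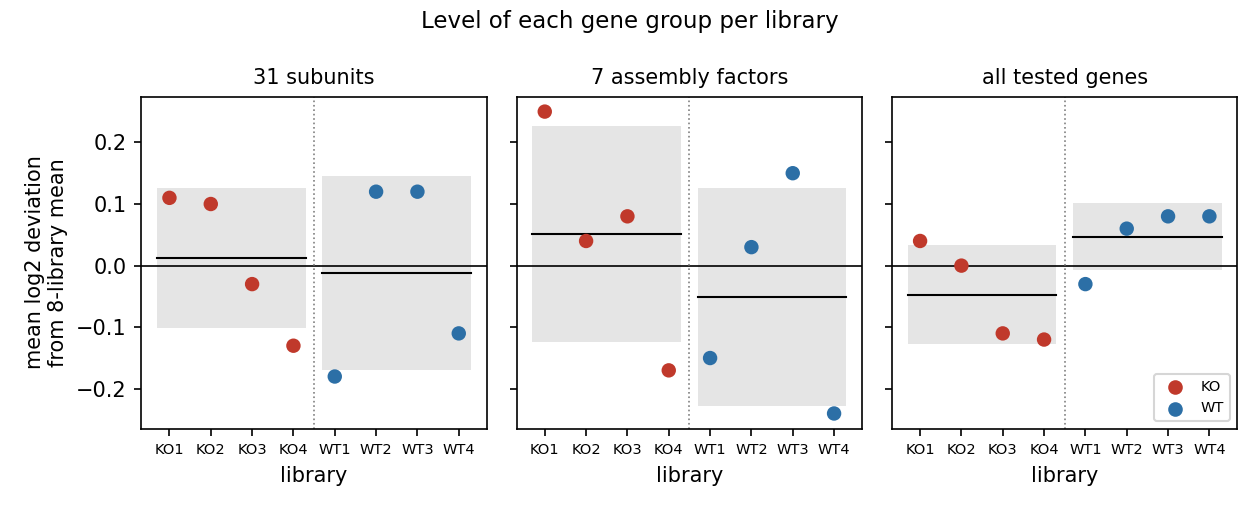
Mean deviation of log2(RPM + 1) from each gene's mean over the 8 libraries (vertical axis, log2 units), for the 31 subunits, the 7 assembly factors and all tested genes, with 1 point per library, a line at the group mean and a grey band of 1 SD. KO and WT points overlap in all 3 panels, and WT1 and WT4 are low for subunits and assembly factors.

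Part of the variation of the subunits went with the make-up of the libraries. The 10 most abundant targets took 18.85, 20.62, 24.18 and 25.47% of the reads in KO1 to KO4, and 24.12, 21.24, 17.75 and 23.13% in WT1 to WT4. The 4 libraries with the smaller shares, KO1, KO2, WT2 and WT3, were those with subunit values of 0.10 to 0.12. The other 4 had values of -0.18 to -0.03. Whether this share accounts for the subunit values was not tested. The assembly factors did not split in this way, with 0.08 in KO3 against 0.04 in KO2 and 0.03 in WT2. Relative to all tested genes of the same library, the subunits stood at 0.07, 0.10, 0.08 and -0.01 in KO1 to KO4, against -0.15, 0.06, 0.03 and -0.19 in WT1 to WT4. On that scale the 2 libraries with the highest bone markers, WT1 and WT4, were the lowest, and the part of bone in this was not tested. WT1 held the lowest value of the 8 libraries for 14 of the 31 subunits, or 45.2%, against 18.6% of all tested genes. KO1 held the highest for 10 of the 31, or 32.3%, against 21.1% of all tested genes. The spread within a group, as the SD of log2(RPM + 1), was larger in WT than in KO for 21 of the 31 subunits, or 67.7%, against 53.1% of all tested genes, with median SDs of 0.20 in KO and 0.25 in WT.

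**Figure D3:**
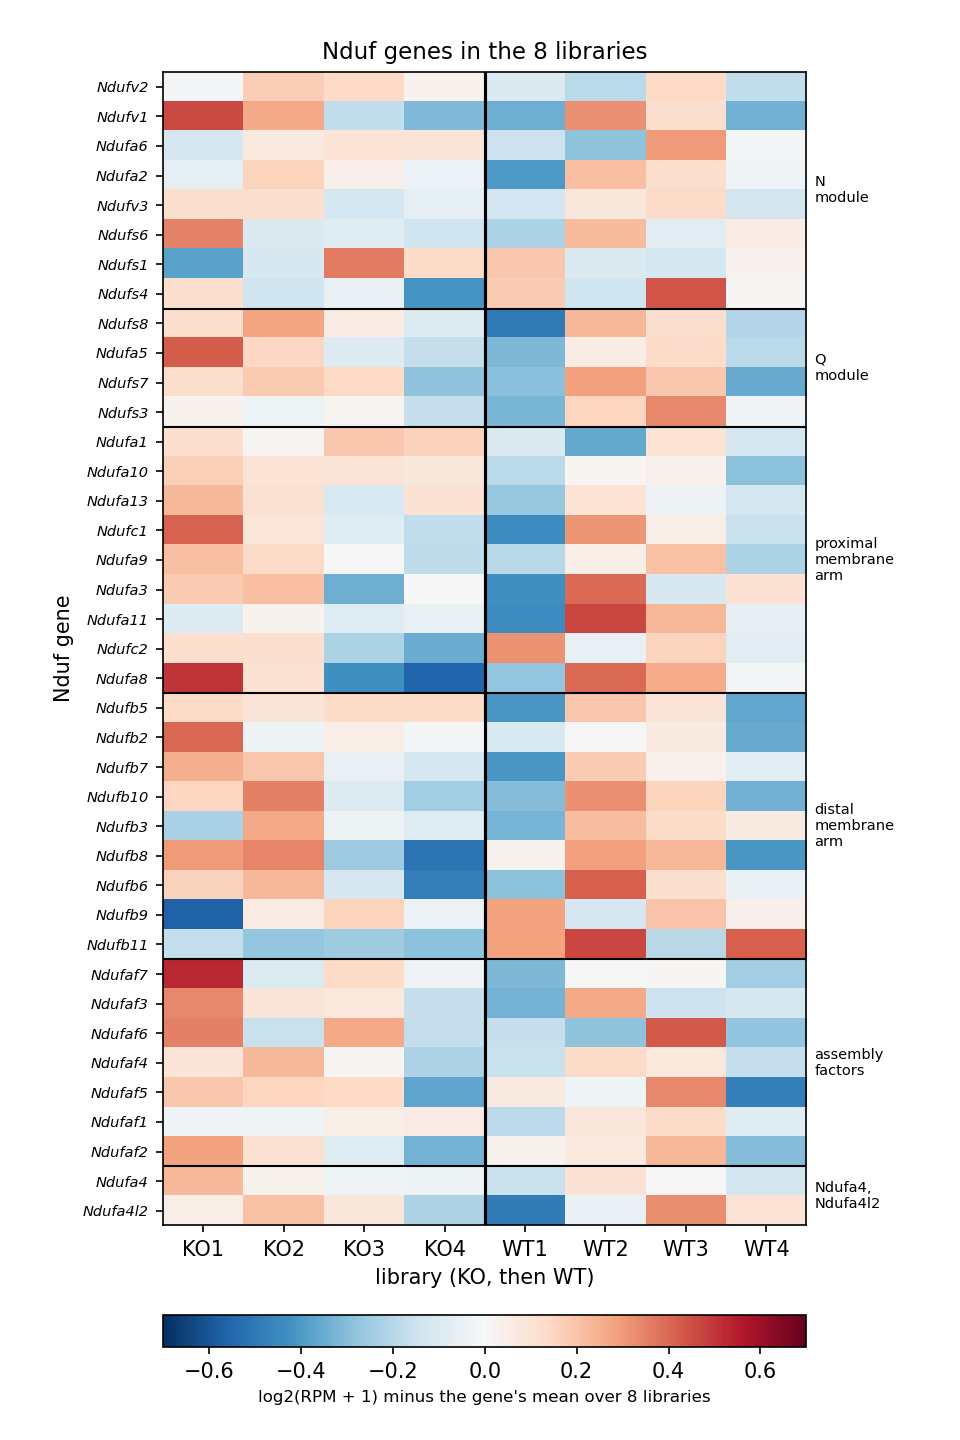
Each row is an Nduf gene reported here, each column a library (KO1 to KO4, then WT1 to WT4), and the colour gives log2(RPM + 1) minus the gene's mean over the 8 libraries. The columns KO4, WT1 and WT4 are mostly blue and KO1 mostly red, whereas Ndufb9 and Ndufs1 are blue in KO1 and Ndufb11 is red in WT1, WT2 and WT4.

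The subunits of the catalytic core that are encoded in the nucleus were all measured. In the N module, Ndufv1 binds the flavin that takes up electrons from NADH. It stood at 461, 402, 297 and 270 RPM in KO1 to KO4, against 264, 418, 363 and 264 RPM in WT1 to WT4, with a log2 fold change of 0.12 (SE 0.19, limma). High and low libraries occurred in both groups. Its partner Ndufv2, an iron-sulfur protein, stood at 543, 619, 604 and 558 RPM in KO, against 512, 481, 605 and 488 RPM in WT (log2 fold change 0.16, SE 0.12). All 4 KO values were above 3 of the 4 WT values, and only WT3 lay among them. Ndufs1, the largest subunit, which carries several iron-sulfur clusters, stood at 1068, 1281, 1786 and 1518 RPM in KO, against 1580, 1293, 1272 and 1407 RPM in WT (0.01, SE 0.16). The KO libraries spanned a wider range than the WT libraries for this gene, and KO1, where most other subunits were high, was the lowest.

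In the Q module, Ndufs7 helps form the pocket in which ubiquinone is reduced. It stood at 469, 488, 475 and 355 RPM in KO1 to KO4, against 352, 526, 491 and 337 RPM in WT1 to WT4 (log2 fold change 0.08, SE 0.17), with 1 low library in KO and 2 in WT. Ndufs3, which carries no cofactor, stood at 1058, 1016, 1052 and 929.6 RPM in KO, against 833, 1152, 1311 and 1025 RPM in WT (-0.07, SE 0.14). Its KO libraries lay inside the WT range. Ndufs8, an iron-sulfur protein, stood at 294, 330.3, 283 and 255 RPM in KO, against 193, 319, 296 and 236 RPM in WT (0.17, SE 0.16), with WT1 and WT4 the lowest.

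The accessory subunits surround the core and were tested in the same fit. Ndufb11, an X-linked subunit of the distal membrane arm, had the smallest p of the 40 genes. It stood at 796, 741, 751 and 730.5 RPM in KO1 to KO4, against 1084, 1233, 781 and 1194 RPM in WT1 to WT4. The KO libraries lay close together, while in WT 3 libraries were well above them and WT3 fell within the KO range. The means were 755 ± 28.7 RPM in KO and 1073 ± 205 RPM in WT (SD, n = 4 each), a KO level of 0.703 relative to WT. On the log2 scale this was -0.49, with a 95% interval from -0.80 to -0.17 (limma, unadjusted p = 0.00518, BH adjusted p = 0.203). By exact permutation of the 8 libraries (two-sided) the p-value was 0.0571, where 0.0286 is the smallest this design can give. Without WT3 the gene was called lower (log2 fold change -0.63, limma BH adjusted p = 0.025), as were 1.17% of the genes tested in that fit. WT3 also had the lowest sums of osteoclast and of osteoblast and osteocyte genes among the WT libraries (11.8 and 397 RPM). The part of bone in this call was not tested. Without WT1 and WT4 its log2 fold change was -0.38 (unadjusted p = 0.0581, limma), and the adjusted p ranged between 0.025 and 1 over the alternatives tried.

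Ndufa1, the other X-linked member, belongs to the proximal membrane arm. It stood at 717, 667, 751 and 738 RPM in KO1 to KO4, against 614, 515, 706 and 607 RPM in WT1 to WT4 (log2 fold change 0.24, SE 0.12, limma BH adjusted p = 0.597), with 3 KO libraries above every WT library and KO2 below WT3. Ndufa10, an accessory subunit related to nucleoside kinases, stood at 478, 456, 455 and 450.5 RPM in KO, against 374, 430.2, 436 and 349 RPM in WT (0.22, SE 0.11, adjusted p = 0.621). It was the 1 complex I gene of 40 whose groups did not overlap, where 5.10% of all tested genes had no overlap. Ndufb5, of the distal membrane arm, stood at 713, 691, 710.4 and 712 RPM in KO, against 489, 739, 691 and 504 RPM in WT (0.25, SE 0.14, adjusted p = 0.683). The KO libraries were nearly equal and lay within the WT range, where WT1 and WT4 were low.

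**Figure D4:**
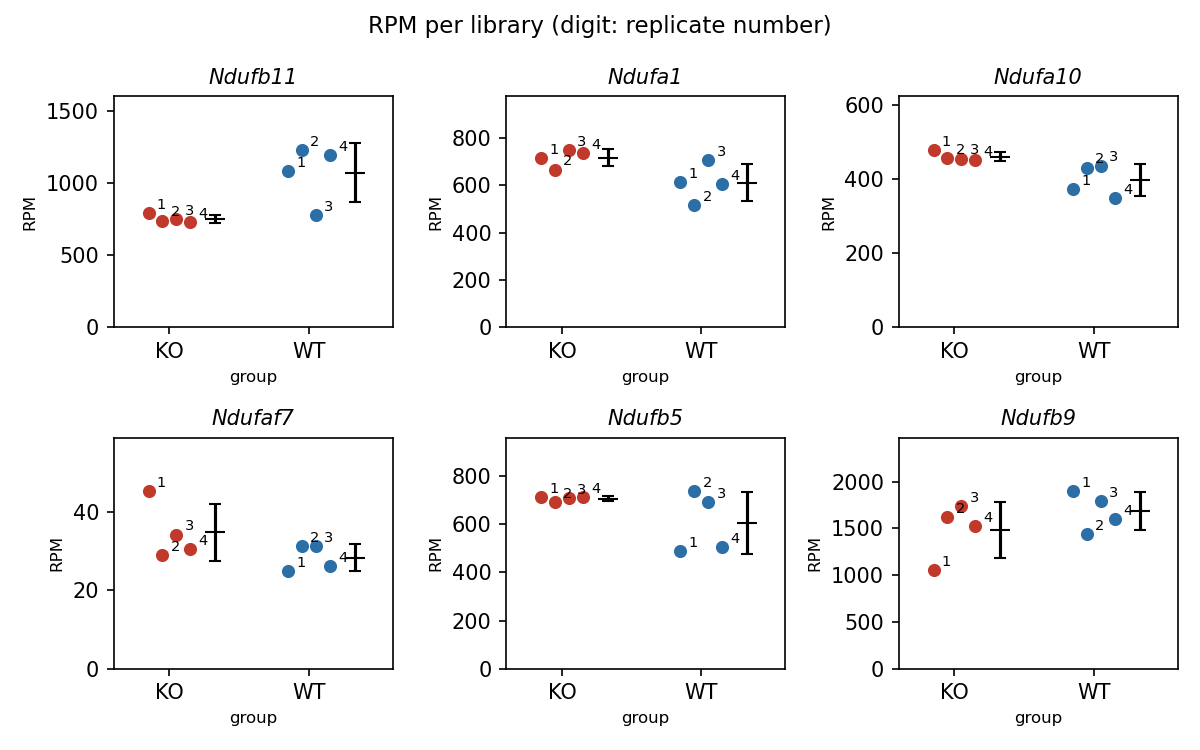
RPM per library for the 5 Nduf genes with the smallest p and for Ndufb9, KO left and WT right, with the replicate number beside each point and the mean with 1 SD in black. In Ndufb11 the KO points lie between 730.5 and 796 RPM and only WT3 falls among them, and the groups of Ndufa10 do not overlap.

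The other subunits with the largest decreases were Ndufs4 and Ndufb9. Ndufs4, an accessory subunit of the N module whose loss in mice causes a fatal encephalomyopathy, stood at 323, 271, 290 and 224 RPM in KO1 to KO4, against 337, 271, 406 and 301 RPM in WT1 to WT4 (log2 fold change -0.24, SE 0.15, limma BH adjusted p = 0.719). KO4 was the lowest library and WT3 the highest. Ndufb9, a distal membrane arm subunit of the LYR family, stood at 1053, 1622, 1738 and 1520 RPM in KO, against 1899, 1438, 1790 and 1599 RPM in WT (-0.20, SE 0.16, adjusted p = 0.821). Ndufb9 and Ndufs1 were the 2 complex I genes with their lowest value in KO1. For the remaining subunits the log2 fold change ran from -0.19 for Ndufa8 to 0.20 for Ndufb2.

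The 7 Ndufaf genes had 11.5 to 103 RPM over all libraries, and the subunits 60.2 RPM or more. Each target is read through 1 amplicon, so these values are not per length, depend on each amplicon and do not rank the genes. Ndufaf7, a protein arginine methyltransferase, had the largest increase of the 40 genes. It stood at 45.3, 29.0, 34.2 and 30.6 RPM in KO1 to KO4, against 24.8, 31.1, 31.3 and 26.1 RPM in WT1 to WT4 (log2 fold change 0.27, SE 0.16, limma BH adjusted p = 0.679). KO1 was the highest library, and KO2 and KO4 lay below WT2 and WT3. Ndufaf5, which hydroxylates an arginine of Ndufs7, stood at 38.1, 37.0, 36.8 and 25.6 RPM in KO, against 34.8, 32.6, 42.2 and 23.6 RPM in WT (0.06, SE 0.18). Replicate 4 was the lowest in each group.

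Other Ndufaf genes act on the Q module. Ndufaf3 stood at 36.1, 30.2, 30.0 and 25.2 RPM in KO1 to KO4, against 22.4, 34.3, 25.6 and 26.0 RPM in WT1 to WT4 (log2 fold change 0.17, SE 0.16). Its binding partner Ndufaf4 stood at 92.3, 102, 87.0 and 74.4 RPM in KO, against 77.6, 94.99, 91.2 and 77.0 RPM in WT (0.06, SE 0.13). The groups overlapped in both genes, with the highest library in KO and the lowest in WT for Ndufaf3, and both extremes in KO for Ndufaf4. Ndufaf6, needed early in the assembly of the Q module, stood at 59.7, 41.6, 55.9 and 41.2 RPM in KO, against 41.5, 38.0, 62.8 and 38.1 RPM in WT (0.15, SE 0.18), with 2 high libraries in KO and 1 in WT.

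The last 2 Ndufaf genes serve the membrane arm and the N module. Ndufaf1, part of the complex that builds the membrane arm, stood at 92.4, 92.0, 96.4 and 97.6 RPM in KO1 to KO4, against 82.4, 98.8, 103 and 88.3 RPM in WT1 to WT4 (log2 fold change 0.03, SE 0.12). Its KO values were nearly equal and lay within the WT range. Ndufaf2, a paralog of the subunit Ndufa12 that helps the N module to dock, stood at 18.1, 15.9, 13.7 and 11.5 RPM in KO, against 14.9, 15.4, 17.4 and 11.7 RPM in WT (-0.01, SE 0.17). It was the 1 assembly factor below 0, and its groups overlapped fully.

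Assembly genes outside the Nduf symbols were examined as a fixed list, of which 13 were measured and tested. Of these, 0 passed the limma threshold in either direction, and 0 had an unadjusted p under 0.05. Their median log2 fold change was -0.03, with 5 above 0 and 8 below, and the values ran from -0.20 for Tmem186 to 0.19 for Dmac2, which the table lists as Atp5sl. Acad9, Ecsit and Tmem126b work with Ndufaf1 on the membrane arm. Acad9, also an acyl-CoA dehydrogenase, averaged 12.2 ± 2.71 RPM in KO and 12.3 ± 2.06 RPM in WT (SD, n = 4 each). Ecsit averaged 89.5 ± 24.9 RPM in KO and 91.4 ± 12.9 RPM in WT, and Tmem126b 20.5 ± 4.58 RPM in KO and 20.1 ± 3.87 RPM in WT. The differences of these genes were far below the spread between libraries. Other genes of the list had a smaller p, down to 0.181 for Dmac2 (limma, unadjusted). The table lists Ndufaf8, the stabilizing partner of Ndufaf5, as 1810043H04Rik, which the rule on symbols did not match. It averaged 28.8 ± 4.55 RPM in KO and 26.6 ± 4.78 RPM in WT (log2 fold change 0.11, limma).

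A pair of members by name lie outside complex I. Ndufa4, now assigned to cytochrome c oxidase, was the most abundant Nduf target, at 2658, 2309, 2226 and 2219 RPM in KO1 to KO4, against 2037, 2434, 2262 and 2076 RPM in WT1 to WT4 (log2 fold change 0.10, SE 0.12, limma). The highest library was KO1 and the lowest WT1. Its paralog Ndufa4l2, known as a target of the hypoxia-inducible factor HIF-1, stood at 28.1, 31.5, 28.7 and 23.3 RPM in KO, against 19.1, 26.3, 34.3 and 29.1 RPM in WT (0.06, SE 0.17, 95% interval -0.32 to 0.43). All 4 KO values lay within the WT range.

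The promoters of the members were searched for motifs of factors known to act on nuclear genes of respiration. This is a description and cannot bear on differences between libraries. RefSeq promoters (GRCm38.p6), which run from 250 bases before to 50 after the start, were at hand for 34 of the 40 genes, and not for Ndufa2, Ndufa4l2, Ndufaf6, Ndufb9 and Ndufs1, among others. Both strands were searched. The NRF1 motif GCGCANGCG was found in 8 of the 34, or 23.5%, against 7.03% of 27025 genes with a promoter in the table. The YY1 motif AAGATGGCG was found in 5, or 14.7%, against 1.64%, and all 5 matches began 23 to 36 bases into the transcript. The ETS motif CCGGAAG was found in 5, or 14.7%, against 9.93%, and the ERR motif TNAAGGTCA in 0, against 1.43%. These are counts of letters in a window and not of bound sites, and the comparison with all promoters was not matched for base composition. The NRF1 matches were in 6 subunits, Ndufa5, Ndufa6, Ndufa8, Ndufa11, Ndufb10 and Ndufs6, and in 2 assembly factors, Ndufaf4 and Ndufaf5. The 120 bases before the start are given for 4 genes with an NRF1 match there, in capitals, to show the motif shared by subunits and an assembly factor. They are also given for Ndufb11, with the smallest p, and Ndufa10, without overlap between groups, which held none of the 4 motifs in the window. In Ndufaf4 matches on the 2 strands overlap. For Ndufa5 a promoter entry was shown only if it held a match in the 120 bases. Its NRF1 matches lay 190 and 26 bases before a start.
Ndufs6, chr13:73328483-73328602, minus strand: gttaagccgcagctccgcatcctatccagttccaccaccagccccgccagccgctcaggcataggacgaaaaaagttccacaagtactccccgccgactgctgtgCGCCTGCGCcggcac
Ndufa5, chr6:24527691-24527810, minus strand: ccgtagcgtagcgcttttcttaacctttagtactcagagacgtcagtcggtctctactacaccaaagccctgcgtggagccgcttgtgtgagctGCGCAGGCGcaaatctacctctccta
Ndufa8, chr2:36049339-36049458, minus strand: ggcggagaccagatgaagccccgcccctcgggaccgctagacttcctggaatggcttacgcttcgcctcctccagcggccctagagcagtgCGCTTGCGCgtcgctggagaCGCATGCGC
Ndufaf4, chr4:24897963-24898082, plus strand: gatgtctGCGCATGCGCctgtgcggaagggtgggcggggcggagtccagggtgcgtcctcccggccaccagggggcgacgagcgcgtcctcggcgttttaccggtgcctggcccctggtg
Ndufb11, chrX:20617620-20617739, minus strand: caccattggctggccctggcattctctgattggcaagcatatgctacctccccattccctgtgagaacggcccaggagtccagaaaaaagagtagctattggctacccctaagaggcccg
Ndufa10, chr1:92473759-92473878, minus strand: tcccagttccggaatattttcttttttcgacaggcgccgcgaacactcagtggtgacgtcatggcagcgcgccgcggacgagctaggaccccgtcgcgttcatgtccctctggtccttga

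The 4 genes with the NRF1 match shown had log2 fold changes of 0.01 for Ndufs6, 0.16 for Ndufa5, -0.19 for Ndufa8 and 0.06 for Ndufaf4, none past the limma threshold. Ndufa8, a disulfide-containing subunit of the proximal membrane arm, varied the most of the 4, at 279, 212, 146 and 134 RPM in KO1 to KO4, against 163, 260, 236 and 196 RPM in WT1 to WT4. KO held both its highest and its lowest library. Ndufa5, a Q module subunit, stood at 554, 455, 388 and 366 RPM in KO, against 332, 428, 452 and 361 RPM in WT. Ndufs6, which binds zinc in the N module, stood at 210, 153, 155 and 150 RPM in KO, against 141, 193, 156 and 171 RPM in WT, with KO1 the highest in each of these 3 genes.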

How the data were processed

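Tibialis anterior RNA was profiled with the Ion AmpliSeq Transcriptome Mouse kit, a set of 1 amplicon for each gene, per the labels. The authors deposited 1 table of RPM values, with 1 column per library, matched here to samples by barcode. Transcriptome Analysis Console is named, per the submitters' processing notes. The aligner, build, filters and treatment of reads shared by paralogs were not given in the sources used here. All values (100.0%) came within 0.1 of a whole read, so reads were recovered. Floors in reads cover counting error only, whereas the 95% intervals of fold changes come from limma and the spread between libraries. Groups were compared on log2(RPM + 1) where the mean reached 1 RPM, in limma 3.58.1 (R 4.3.3, intensity trend, two-sided tests). Benjamini-Hochberg (BH) adjustment ran over all 11004 such genes, and an adjusted p under 0.05 was called. The pseudocount makes fold changes of low genes too small. edgeR 4.0.16 and DESeq2 1.42.0 were run on the recovered reads as alternatives, beside other pseudocounts, filters, scalings, weights, a replicate block, a sex term and fits without single libraries. Members, gene lists, motifs and tests were chosen with earlier results of these data known. Genes given by library were the core subunits, 1 of which is not reported here by its own values, all Ndufaf genes, the 5 members with the smallest p, the 3 largest increases and 3 largest decreases, Ndufa4 and Ndufa4l2. Ndufa5, Ndufa8, Ndufs6, Acad9, Ecsit, Tmem126b and 1810043H04Rik were added after their values were seen. The procedure was also run on simulated reads, with the same dispersion for every gene and larger fold changes than those of the complex I genes. That run cannot show how well changes of the size seen here are found. Each n counts libraries, which the labels treat as separate mice, and all pairs within a group differed beyond sampling noise (chi-square from 12.3 to 34.4 per degree of freedom).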

Additional observations from a re-analysis of the deposited data

Results flagged for a closer look

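Among the 50 groups of 4 libraries examined (24 complex I genes and Sdhc in KO and in WT), 5 held a library far from the other 3, and chance alone would flag about 1 group in 20. Ndufs7 was low in KO4, at 355 RPM, and Ndufaf5 was low in the same library, at 25.6 RPM. Ndufb5 was lowest in KO2, at 691 RPM, although the other KO libraries were only slightly higher, at 710.4 to 713 RPM. Ndufaf6 was high in WT3, at 62.8 RPM, and Ndufs6 was high in KO1, at 210 RPM.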

How the results depend on the processing

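With 4 libraries per group, the standard errors of the 40 genes (0.11 to 0.22 on the log2 scale) limit what can be seen. The count of complex I genes called was 0 in every alternative except without WT3, where it was 1 (Ndufb11), so that leaving out single libraries gave 0 to 1. Sdhc was called in all 22 alternatives. Over all genes, 3 were called, against 6 with no filter, 149 by DESeq2, and 1 each with median-ratio, TMM and quantile scaling, without the intensity trend, in edgeR, and without WT1 and WT4. Leaving out single libraries gave 1 to 130, with 10 without KO1 and 130 without WT3. The subunit median was -0.11 without WT1 and WT4, and the subunit minus assembly factor difference ran from -0.12 (without KO4) to 0.035 (without WT2), with -0.09 without WT1. The cause was not tested. Of the 24 Nduf genes given by library, Ndufa4 and Ndufa4l2 included, 14 changed sign or reached 0 under at least 1 alternative, and 10 kept their sign. Ndufa4 is among the 14 only because its log2 fold change rounded to 0 without WT1 and WT4. None of the 14 was called in any alternative. Replicate numbers are shared by the groups, but the labels do not say that they pair mice. The correlations of same-numbered libraries were 0.003, 0.257, 0.125 and 0.105, and KO2 alone correlated best with its own number. Same-numbered libraries were also of the same sex. Pairs of the same sex, whatever their number, had correlations of 0.003 to 0.279, and pairs of opposite sex -0.325 to -0.068. With the number as a replicate block, 1 gene was called over all genes and 0 complex I genes, with a subunit median of 0.07. Sex, read from Xist and 4 Y-linked genes, was balanced, and as a term it left 0 complex I genes called.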
